A study of Mus musculus with 4 samples.

Results

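The receptor tyrosine kinase Alk, its nearest relative Ltk, and the secreted and membrane proteins that act on them were followed through 4 mouse neuroblastomas. They make up 7 genes of the 22180 that the arrays name: Alk and Ltk, the ligands Alkal1 and Alkal2 (Fam150a and Fam150b in older lists), the growth factors Ptn and Mdk, and the phosphatase gene Ptprz1. They were chosen by name, with no threshold on a measured value but with earlier results of these data known. Each had 1 probe set that maps to it and to no other gene. Total RNA from each primary tumour was read on 1 Affymetrix array. All 4 tumours form 1 group: each carries mutant Alk, the TH-MYCN transgene and Stat6-/-, and the strain is a cross of C57BL\6 and 129Sv/J. TH-MYCN places MYCN under the tyrosine hydroxylase promoter, so the oncogene is made in catecholamine-producing cells. The animals' ages and the kind of Alk mutation are not stated in the labels, and tumours with normal Alk or intact Stat6 were not analysed here. There is therefore no contrast between conditions and no test; each statement below describes levels and spread in these arrays.

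ALK is a transmembrane receptor of the insulin receptor superfamily that is made by developing sympathetic neurons. Activating mutations of it drive a share of human neuroblastomas, alone or together with MYCN. ALKAL1 and ALKAL2 are small secreted proteins that bind and activate ALK and LTK, and ALKAL2 is the more potent of the pair on ALK. Pleiotrophin (Ptn) and midkine (Mdk) are heparin-binding growth factors that were proposed earlier as ALK ligands. Both also bind syndecans, integrins and the receptor phosphatase PTPRZ1, whose activity pleiotrophin blocks. Downstream, the active kinase recruits adaptors such as SHC1, FRS2 and IRS1 and signals through RAS and ERK and through PI3 kinase and AKT.

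Values are deposited RMA values, treated as log2 units, so a difference of 1 is 2-fold. Background was read from 1394 genes of olfactory and vomeronasal receptors, proteins of the nose that have no known place in this tumour (called receptor genes below). A gene was called detected when its 4-tumour mean lay above the 95th percentile of those genes' means, a floor of 6.17. Across all genes 8989 of 22180 (40.5%) passed. Cross-hybridisation, which was not measured here, can raise the signal of receptor genes and so make the floor strict. A mean under the floor leaves expression unknown. Probe sets differ in how brightly they bind, so the levels of the genes studied are not set against each other. A rank among receptor genes places a signal relative to background only. Linear signals summed over a list weigh its brightest probe sets most.

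The lineage of the tumours was read from marker genes. All 13 measured sympathoadrenal markers were detected, among them Stmn2 at 12.02 ± 0.21, Th at 11.88 ± 0.18 and Dbh at 10.64 ± 0.33 (SD, n = 4). The labels name the tissue as the sternocleidomastoid muscle, and 0 of 11 skeletal muscle markers passed the floor, with member means from 3.63 to 5.86. Stat6 lay between 5.75 and 5.92, under the floor, and the labels do not say where its probe set lies relative to the deletion. Tumour 4 stood apart by sex-linked genes, with Xist at 10.13 against 3.89 to 3.95 in tumours 1 to 3. The arrays were also offset from each other. The median deviation of detected genes from their own 4-tumour mean was 0.12, 0.04, -0.09 and -0.08 in tumours 1 to 4, while the median of receptor genes ran the other way, at 3.85, 3.95, 4.10 and 4.10.

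Promoter windows are shown for Alk and for Ptn and Ptprz1, which like Alk had their highest value in tumour 1, and for Alkal2, a ligand with its lowest value there. Each is the 250 bases before the RefSeq start (GRCm38.p6), 5′ to 3′ on the gene's strand. Capitals mark TGACG (the half-site of the cyclic AMP response element), TAAT (a homeodomain core) and GGGCGG (the GC box), each searched on both strands.
Alk, chr17:72604308-72604557, minus strand: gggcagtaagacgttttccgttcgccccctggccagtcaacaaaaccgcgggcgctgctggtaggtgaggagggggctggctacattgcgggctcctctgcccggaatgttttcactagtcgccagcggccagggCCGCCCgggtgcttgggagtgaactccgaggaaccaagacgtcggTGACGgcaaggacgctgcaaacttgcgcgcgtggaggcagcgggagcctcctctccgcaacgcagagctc
Ptn, chr6:36810180-36810429, minus strand: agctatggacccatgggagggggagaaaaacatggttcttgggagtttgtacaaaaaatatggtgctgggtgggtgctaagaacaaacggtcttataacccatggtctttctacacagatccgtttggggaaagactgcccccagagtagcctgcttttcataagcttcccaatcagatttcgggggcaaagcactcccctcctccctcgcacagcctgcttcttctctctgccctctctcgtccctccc
Ptprz1, chr6:22875252-22875501, plus strand: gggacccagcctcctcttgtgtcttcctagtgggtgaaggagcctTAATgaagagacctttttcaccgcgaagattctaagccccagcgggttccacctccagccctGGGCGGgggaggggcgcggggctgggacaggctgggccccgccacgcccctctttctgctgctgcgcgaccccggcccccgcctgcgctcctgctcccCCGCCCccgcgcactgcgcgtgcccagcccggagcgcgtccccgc
Alkal2, chr12:30884074-30884323, plus strand: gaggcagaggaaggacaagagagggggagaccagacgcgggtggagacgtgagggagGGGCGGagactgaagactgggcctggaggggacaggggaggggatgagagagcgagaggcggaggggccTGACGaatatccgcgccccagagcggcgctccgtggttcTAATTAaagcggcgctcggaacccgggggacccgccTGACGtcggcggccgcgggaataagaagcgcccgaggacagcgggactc

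RefSeq windows were matched for 5 of the 7 genes, the fifth being Ltk. The Alk window was 65.2% G and C with 23 CpG pairs, against medians of 52.4% and 6 over 32817 windows of all genes. Those of Alkal2 (68.0%, 25 CpG), Ptprz1 (71.6%, 22 CpG) and Ltk (68.8%, 16 CpG) were also CpG-rich. Ptn stood near the median, at 52.0% and 5 CpG. TGACG was found once in the Alk window, at bases -70 to -66 from the start, and at 2 places in that of Alkal2, and in 17.7% of all windows. TAAT was found at 2 overlapping places in Alkal2 and at 1 place in Ptprz1 (54.9% of all windows). GGGCGG was found in each of these windows except that of Ptn (32.7% of all windows). None of the 5 held an E-box, CANNTG, a pattern that includes the canonical MYC site CACGTG and that 66.2% of all windows held. GATAA was also not found (22.6% of all windows). These matches describe letters in a window and say nothing of binding.

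Of the 7 genes, 2 were detected, the receptor Alk and the growth factor Mdk, where 40.5% of all genes were. None of the 7 had a range over the 4 tumours of at least 1 (2-fold), which 383 of the 8989 detected genes (4.26%) reached. The ranges of the 7 ran from 0.11 for Alkal1 to 0.79 for Ptprz1, beside a median of 0.41 both for detected genes and for receptor genes.

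**Figure D1:**
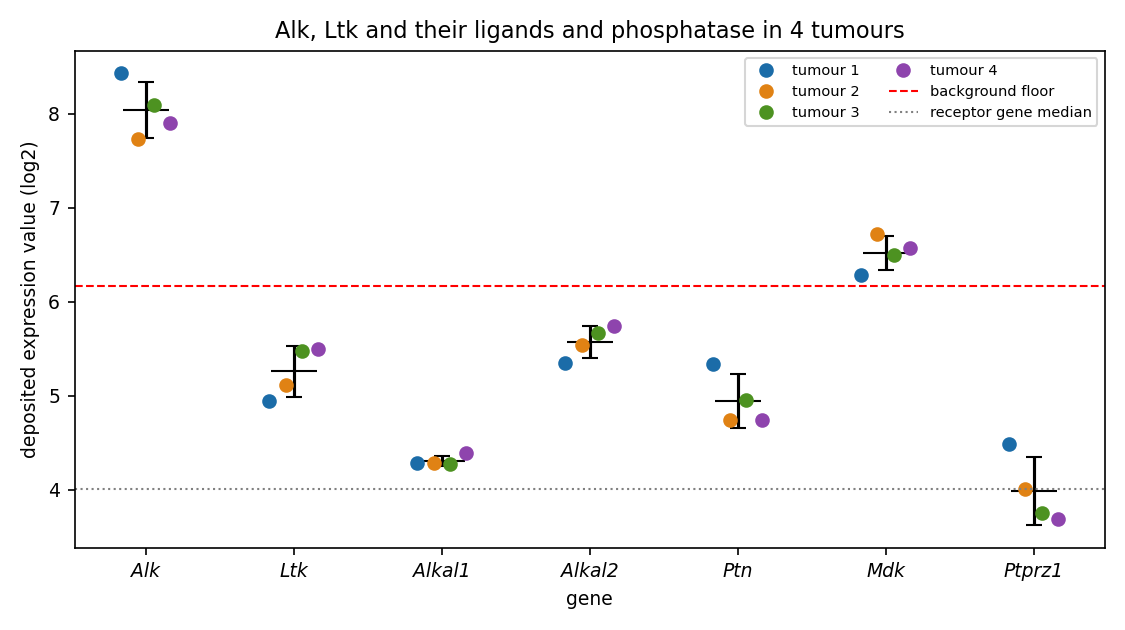
Deposited log2 expression values (vertical axis) of the 7 genes (horizontal axis), with 1 coloured point per tumour and a black bar for the mean ± SD (n = 4). The dashed line is the background floor of 6.17 and the dotted line the median of receptor genes, 4.01. Alk and Mdk lie above the floor in each of the 4 tumours and the other 5 genes below it; heights are not comparable between genes.

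Alk was above the floor in every tumour. It measured 8.43 in tumour 1, 7.73 in tumour 2, 8.10 in tumour 3 and 7.91 in tumour 4. Its mean of 8.04 ± 0.30 (SD, n = 4) lay 1.88 above the floor, and 99.4% of receptor genes had a lower mean. Tumour 1 was the highest and tumour 2 the lowest, and the span of 0.70 is 1.63-fold. Each tumour is 1 array, so neighbouring values in this order cannot be separated from array error. Among detected genes, 14.0% spanned at least as much over the 4 tumours. For tumours 1 and 2 alone, only 153 detected genes (1.70%) differed by as much as Alk, a pair picked because it holds the extremes of Alk. Between tumours 2 and 4, 60.4% of detected genes differed at least as much as Alk did. Without tumour 1 the Alk range was 0.37. The probe set does not separate mutant from normal Alk transcripts as far as is known here.

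The direction in Alk did not depend on how the arrays were brought to 1 scale. With each array centred on its detected genes, tumour 1 was still the highest and tumour 2 the lowest, with a range of 0.62. The same 2 tumours were the extremes after a further quantile normalization, with a range of 0.65, and with centring on the receptor genes, with a range of 0.80. In that last setting tumour 2 (7.78) lay barely under tumour 4 (7.81). Being highest in tumour 1 is common in these arrays: 4191 of 8989 detected genes (46.6%) were. Being lowest in tumour 2 was less so, with 1599 of them (17.8%).

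Ltk, the relative of Alk that shares its ligands, was under the floor in every tumour. It measured 4.95, 5.12, 5.48 and 5.50 in tumours 1 to 4, a mean of 5.26 ± 0.27 (SD, n = 4) with 84.4% of receptor genes lower. Tumours 1 and 2 lay below tumours 3 and 4, the reverse of what Alk showed for tumour 1. The order of Ltk is that of the receptor gene medians, and 215 of 1394 receptor genes (15.4%) had the same order from tumour 1 up to tumour 4. The range of 0.55 became 0.30 with arrays centred on the receptor genes and 0.76 with centring on detected genes, with tumour 1 lowest and tumour 4 highest in both.

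The 2 ALKAL ligands were also under the floor. Alkal2 measured 5.35, 5.54, 5.67 and 5.74 in tumours 1 to 4, with a mean of 5.57 ± 0.17 (SD, n = 4), 0.59 under the floor and above 88.6% of receptor genes. It too followed the order of the receptor medians. Its range of 0.39 became 0.14 with arrays centred on the receptor genes and 0.59 with centring on detected genes, again with tumour 1 lowest and tumour 4 highest. Alkal1 was nearly constant, with 4.29, 4.28, 4.27 and 4.39 in tumours 1 to 4 and a mean of 4.31 ± 0.05 (SD, n = 4). Only 62.1% of receptor genes lay below it. A transcript of either ligand was thus not separable from background here, and which cells would make it was not measured.

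Midkine was the ligand with a signal above background. Mdk measured 6.29 in tumour 1, 6.73 in tumour 2, 6.50 in tumour 3 and 6.57 in tumour 4. Every tumour passed the floor, the mean of 6.52 ± 0.18 (SD, n = 4) by 0.36, and 97.3% of receptor genes lay lower. Its extremes were those of Alk turned round, lowest in tumour 1 and highest in tumour 2. How many detected genes had these extremes was not counted, and a relation between Mdk and Alk was not tested. The Mdk range of 0.44 was reached by 45.9% of detected genes. It was 0.22 without tumour 1, and with the receptor offset removed tumour 3 became the lowest. At a stricter floor of 7.14, the 99th percentile, Mdk was no longer detected and Alk was the 1 gene of the 7 left.

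Pleiotrophin, the close homologue of midkine, was under the floor. Ptn measured 5.34 in tumour 1 and 4.74, 4.96 and 4.74 in tumours 2, 3 and 4, with a mean of 4.95 ± 0.28 (SD, n = 4). Tumour 1 stood above the other 3, which lay within 0.22 of each other. Ptprz1, the phosphatase that binds pleiotrophin and midkine, had the widest range of the 7 genes as deposited, and 49.1% of receptor genes lay below it. With arrays centred on detected genes, Ltk (0.76), Alk (0.62) and Alkal2 (0.595) had wider ranges than Ptprz1 (0.588). Without tumour 1, Ltk (0.38) and Alk (0.37) had wider ranges than Ptprz1 (0.31). Ptprz1 measured 4.49, 4.01, 3.75 and 3.69 in tumours 1 to 4, with a mean of 3.99 ± 0.36 (SD, n = 4). Its range of 0.79 was reached by 9.61% of detected genes and 10.7% of receptor genes.

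Leaving out tumour 4, the 1 array with the Xist signal, left the ranges at 0.70 for Alk, 0.74 for Ptprz1, 0.60 for Ptn, 0.53 for Ltk, 0.44 for Mdk and 0.32 for Alkal2. That of Alkal1 became 0.01.

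Both genes had signals in the range of receptor genes, and nothing here separates their differences from background. Receptor genes were lowest in tumour 1 by their median, and 96 of 1394 of them (6.89%) had their highest value there, as Ptn and Ptprz1 did. With the receptor offset removed, the ranges were 0.85 for Ptn and 1.05 for Ptprz1, both with tumour 1 highest. Ptprz1 then passed the 2-fold limit that none of the 7 passed as deposited. Both stayed highest in tumour 1 with centring on detected genes, where the ranges were 0.52 and 0.59.

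**Figure D2:**
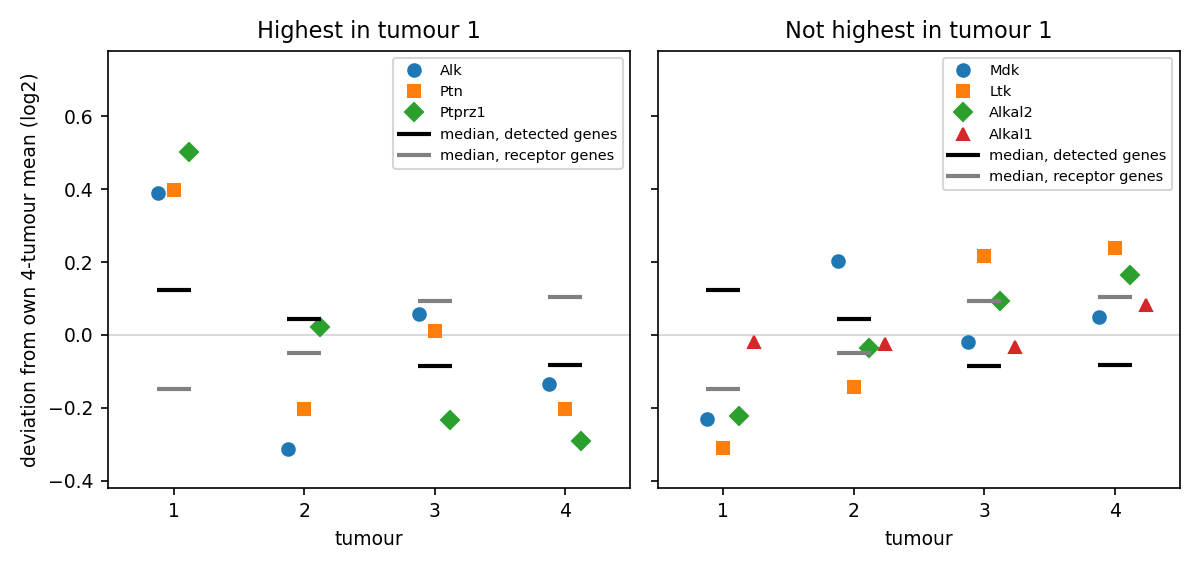
Deviation of each gene from its own 4-tumour mean (log2, vertical axis) in tumours 1 to 4 (horizontal axis), 1 point per gene and tumour. Black bars are the median deviation of detected genes and grey bars the receptor gene medians, centred. Alk, Ptn and Ptprz1 lie 0.39 to 0.50 above their means in tumour 1, while Ltk and Alkal2 lie in the same order as the grey bars.

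Cell type markers were set beside these patterns, since the tumours are bulk tissue, in which fewer cells of a type and less RNA per cell cannot be told apart. Of 12 fibroblast and matrix markers measured, 9 were detected, a share of 75% beside 40.5% of all genes. Of these 9, 8 were highest in tumour 1 (46.6% of detected genes were). The median deviation over the 9 was 0.57, -0.22, 0.04 and -0.45 in tumours 1 to 4, and the summed linear signal of the 12 ran from 1490 in tumour 4 to 3076 in tumour 1. Postn, a matrix protein of activated fibroblasts, measured 9.44, 8.33, 8.88 and 7.57 in tumours 1 to 4. Fn1, fibronectin, ran from 7.59 in tumour 4 to 8.61 in tumour 1, and Fbln1, fibulin, from 8.33 in tumour 3 to 8.89 in tumour 2. Dcn, decorin, measured 8.26, 6.36, 6.55 and 6.17. The 3 markers under the floor were Col5a1 (5.87), Pdgfra (4.37) and Lum (3.88), of which 2 were highest in tumour 1. The part of fibroblasts in the Alk, Ptn and Ptprz1 values was not tested.

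Schwann cells and their precursors are another source of Ptn and Ptprz1 in nerve tissue. Of 10 measured markers 3 were detected, Fabp7, Gfra3 and Pmp22, a share of 30% beside 40.5% of all genes. Each was highest in tumour 1 (46.6% of detected genes were). Their median deviations were 0.36, 0.11, -0.59 and 0.11 in tumours 1 to 4, and the summed linear signal of the 10 ran from 1411 in tumour 3 to 2880 in tumour 1. Fabp7, a fatty acid carrier of glial precursors, measured 9.54, 8.49, 6.49 and 8.32 in tumours 1 to 4. Gfra3, the artemin receptor, which sympathetic neurons also make, ran from 9.73 in tumour 3 to 10.62 in tumour 1, and Pmp22, a myelin protein, from 7.24 in tumour 4 to 7.90 in tumour 1. Among the 7 markers under the floor, 5 were also highest in tumour 1, namely Mbp, Erbb3, Foxd3, Ngfr and Cdh19. The other 2, Sox10 and S100b, were highest in tumour 3, at 5.87 and 4.85. The part of Schwann cells in these values was not tested.

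Neither list had the order of Alk in full, which ran 1, 3, 4 and 2 from highest to lowest: the fibroblast median was lowest in tumour 4 and the Schwann median in tumour 3. Sympathoadrenal markers had median deviations of 0.05, -0.18, -0.05 and 0.18 in tumours 1 to 4, lowest in tumour 2 as Alk was but highest in tumour 4. The summed linear signal of the 13 ran from 15117 in tumour 2 to 18356 in tumour 4. Macrophage markers, with 8 of 12 detected, stood at 0.19, 0.18, -0.55 and 0.11, among them Lyz2 (10.02 ± 0.45), C1qb (9.18 ± 0.35) and Cd68 (8.63 ± 0.40, SD, n = 4). Pericyte and smooth muscle markers, with 3 of 8 detected, stood at 0.21, 0.31, -0.10 and -0.42, with Rgs5 at 8.76 ± 0.49, Acta2 at 7.70 ± 0.33 and Pdgfrb at 6.21 ± 0.17 (SD, n = 4). Endothelial markers had 2 of 10 detected, Cdh5 (6.47 ± 0.12) and Egfl7 (6.21 ± 0.11, SD, n = 4). Lymphocyte markers had 0 of 10 and adrenal cortex markers 0 of 7. The shares detected were 66.7% for macrophage, 37.5% for pericyte and smooth muscle and 20% for endothelial markers, beside 40.5% of all genes.

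**Figure D3:**
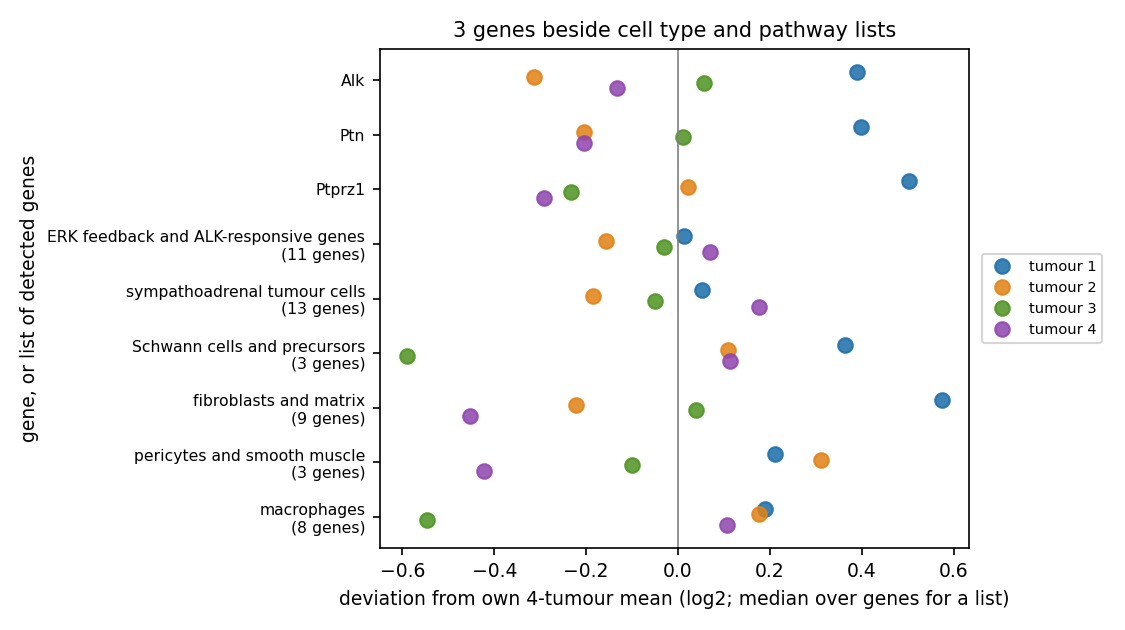
Deviation from the own 4-tumour mean (log2, horizontal axis) of Alk, Ptn and Ptprz1, and the median deviation of the detected genes of 6 lists (rows), 1 point per tumour, spread vertically so that none is hidden. Tumour 1 is rightmost for the 3 genes and for the fibroblast and Schwann lists, at 0.36 to 0.57. It is also rightmost for macrophages, at 0.19 beside 0.18 in tumour 2, while ERK feedback genes lie at 0.01 in tumour 1.

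Most genes of the pathway lists, which cover intracellular signalling, other receptors and sulphate chains, were detected. Of 120 genes measured in 8 pathway lists, 88 were detected (40.5% of all genes), and 3 of the 88 had a range of at least 1, Dusp6, Vgf and Ntrk3 (4.26% of detected genes). The lists were chosen with earlier results of these data known, so these shares are not independent of the data. All 22 measured adaptors and effectors passed the floor, with a median range of 0.42. Shc1, the adaptor that couples ALK to RAS, measured 8.36, 8.30, 8.48 and 8.99 in tumours 1 to 4, highest in tumour 4. Irs1, a docking protein shared with the insulin receptor, ran from 7.22 in tumour 4 to 7.92 in tumour 2, and its homologue Irs2 from 7.18 in tumour 2 to 7.76 in tumour 4. The narrowest were Gab1, a docking protein (6.53 ± 0.12), and Frs3, a relative of FRS2 (6.40 ± 0.07, SD, n = 4). None of the 22 had a 2-fold range.

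The RAS, ERK and AKT cascade was flatter still. All 13 measured genes were detected, with a median range of 0.29; the list holds 20 genes, and the other 7 had no probe set with 1 gene. Nras, a RAS protein, ran from 8.49 in tumour 3 to 9.05 in tumour 4. Rasa1, which switches RAS off, ran from 7.95 to 8.40 and Map2k2, a kinase that activates ERK, from 7.38 to 7.82. Akt1 was nearly constant at 9.31 ± 0.02 and Mtor at 8.42 ± 0.08 (SD, n = 4).

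Genes that respond to ERK, the feedback arm downstream of active ALK, varied most among the pathway lists. Of 16 measured 11 were detected, with a median range of 0.63 beside 0.41 for all detected genes. Dusp6, an ERK phosphatase, measured 7.57, 6.88, 8.06 and 7.98 in tumours 1 to 4. Vgf, a neuronal secreted protein, measured 8.14, 7.58, 8.67 and 7.69, and Spry4, a feedback inhibitor, 6.63, 6.28, 7.20 and 7.06. All 3 were lowest in tumour 2, where Alk was lowest, and highest in tumour 3, where Alk was not highest. Of the 11 genes 5 were lowest in tumour 2 (17.8% of detected genes were) and 0 were highest in tumour 1 (46.6% were). Others went the other way: Spred2, Spred1 and Etv5 were highest in tumour 2, at 8.56, 7.66 and 8.27. Among the genes under the floor, Etv4 was lowest in tumour 2, and Dusp4, Dusp5, Egr1 and Fos in tumour 4. Spry1 (6.61 ± 0.05) and Spry2 (6.56 ± 0.04, SD, n = 4), of the same inhibitor family as Spry4, hardly varied. With 4 tumours no relation between Alk and these genes was tested.

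Genes that limit receptor kinases were detected in 4 of 6 cases (40.5% of all genes were). Cbl, a ubiquitin ligase that sends receptors to the lysosome, ran from 8.09 in tumour 4 to 8.59 in tumour 1. Cblb measured 8.60, 8.64, 8.64 and 8.25 in tumours 1 to 4, lower in tumour 4 than in the other 3. Nedd4, another ubiquitin ligase, averaged 11.31 ± 0.14 and Ptpn1, a phosphatase of insulin receptor family kinases, 7.37 ± 0.08 (SD, n = 4). Ptpn2 (5.83) and Ptpn6 (5.70) had means under the floor.

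Midkine and pleiotrophin have other receptors, and 9 of the 17 measured were detected (52.9%, beside 40.5% of all genes). Sdc3, the neuronal syndecan that binds pleiotrophin, was steady at 9.48 ± 0.09, and the integrin chain Itgb1 at 9.15 ± 0.14 (SD, n = 4). Itgav, the integrin chain that pairs with Itgb3 as a pleiotrophin receptor, ran from 6.17 in tumour 3 to 7.06 in tumour 1, and Itgb3 itself averaged 5.15, under the floor. Nrp1, a co-receptor of VEGF and semaphorins, measured 9.23, 8.66, 8.53 and 9.22 in tumours 1 to 4. Gpc2, a heparan sulphate proteoglycan of neuroblasts that binds midkine, measured 7.82, 7.39, 7.53 and 7.59. It had the same extremes as Alk, which 666 detected genes (7.41%) had. Ptprb, the vascular phosphatase related to PTPRZ1, lay between 4.95 and 5.03, under the floor. Of the 9 detected genes 6 were highest in tumour 1 (46.6% of detected genes were).

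Of 11 measured partners and substrates of PTPRZ1, 9 were detected (40.5% of all genes were), while Ptprz1 itself was not. L1cam, an adhesion molecule of growing axons, measured 9.60, 8.88, 9.39 and 9.50 in tumours 1 to 4. Its highest and lowest tumours were those of Alk, as for 7.41% of all detected genes. Ncam1, another adhesion molecule, averaged 10.44 ± 0.13 and Ctnnb1, beta-catenin, which PTPRZ1 dephosphorylates, 9.37 ± 0.12 (SD, n = 4). The scaffold genes Magi1 and Magi3 had their lowest values in tumour 3, 6.51 and 6.42. The matrix ligands Tnc (5.85) and Tnr (5.04) had means under the floor.

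Heparan and chondroitin sulphate chains carry these heparin-binding ligands, and 13 of 19 measured synthesis genes were detected, none with a 2-fold range. Hs6st1, a sulphotransferase, ran from 6.85 in tumour 2 to 7.56 in tumour 4. Glce, the epimerase of the chain, measured 6.50, 6.41, 6.37 and 5.82 in tumours 1 to 4. Extl3, which starts heparan chains, ran from 7.49 in tumour 3 to 8.17 in tumour 2. The narrowest were Chpf (7.02 ± 0.11), of chondroitin elongation, and Ext2 (7.54 ± 0.09, SD, n = 4), of heparan elongation.

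Among 16 other receptor tyrosine kinases measured, 7 were detected (43.8%), near the 40.5% of all genes. The median deviation of the 7 was 0.23, -0.10, 0.07 and -0.09 in tumours 1 to 4, in the order of Alk; relative to the median of all detected genes, tumour 3 (0.15) lay above tumour 1 (0.10). Ntrk3, the neurotrophin-3 receptor, measured 7.26, 6.30, 6.24 and 7.27 in tumours 1 to 4, high in tumours 1 and 4. Igf1r, of the same superfamily as ALK, measured 7.76, 7.47, 6.86 and 7.79. Axl, a receptor of GAS6, ran from 6.99 to 7.47, and Ddr1 (7.30 ± 0.13), a collagen receptor, and Fgfr1 (7.04 ± 0.11, SD, n = 4), a fibroblast growth factor receptor, were narrow. Ros1 (4.46) and Insrr (4.27), of the same superfamily as ALK and LTK, had means under the floor. Fgfr1 had the order of Alk over the tumours, across a range of 0.21.

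**Figure D4:**
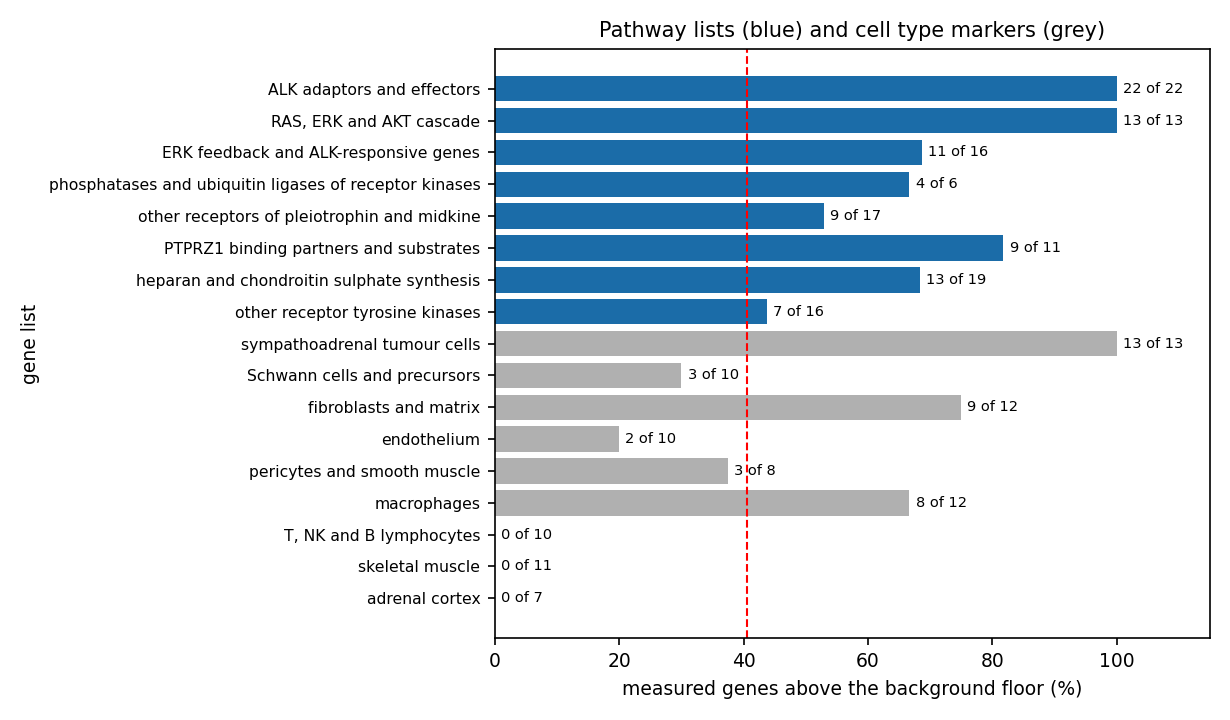
Percent of the measured genes of each list above the background floor (horizontal axis), with counts at the bar ends. Blue bars are the 8 pathway lists, grey bars the 9 cell type marker lists, and the dashed line is the 40.5% of all genes. Adaptors, the RAS, ERK and AKT cascade and sympathoadrenal markers reach 100%, and lymphocyte, skeletal muscle and adrenal cortex markers 0%.

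The genes whose pattern lay nearest to that of Alk were found by the root mean square difference between deviations over the 4 tumours, among 3150 detected genes with a range of at least 0.5. The 5 nearest were Dlgap3 at 0.040, 2810013P06Rik at 0.047, Tmem8b at 0.051, Gpr173 at 0.053 and Crtap at 0.055 log2 units, where the median gene lay at 0.35. Dlgap3, a postsynaptic scaffold gene, measured 6.95, 6.34, 6.64 and 6.51 in tumours 1 to 4. Gpr173, an orphan receptor gene, measured 7.38, 6.72, 6.95 and 6.87, and Crtap, which encodes a collagen-modifying protein, 7.13, 6.52, 6.79 and 6.54. There were 38 genes within 0.1 of Alk, so over 4 tumours the pattern is shared by many genes. By order alone, tumours 1, 3, 4 and 2 from highest to lowest, 305 of the other 8987 detected genes (3.39%) matched Alk. In the pathway and marker lists these were Sdc3, Fgfr1 and, named after its values were seen, the collagen gene Col3a1.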

How the data were processed

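RNA from 4 tumours in 1 group was measured on 1-colour Affymetrix arrays, 1 per tumour. Per the submitters' processing notes, RMA and Partek were used; their versions and settings are not stated there. The deposited values (2.47 to 13.6) were taken as log2 values as the authors normalized them; the log base is not stated and they are not centred per gene. The number of arrays limits the precision. Arrays had at most 0.22% of values in common pairwise, and separate animals are not stated. Tumours are numbered in record order.

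Of 41345 probe sets, 25335 were listed in the platform annotation, 23521 with 1 gene and 1814 with several; 16010 were not listed. Symbols were updated by Entrez identifier with RefSeq GRCm38.p6 (23328 matched, 193 kept the array symbol). Of several probe sets (1082 genes) the brightest by 4-tumour mean was used. The labels name no genome build. Detection and range calls are defined in the report. Named genes were the 7 members, up to 3 widest and 2 narrowest detected genes per pathway list, up to 3 highest-mean genes per marker list, and the 5 genes most like Alk. Dcn, Spred1, Spred2, Etv5 and the list genes under the floor that the report names were singled out after their values were seen. Members and lists were chosen with earlier results of these data known. Alternatives were other floors, mean of probe sets, quantile normalization, array centring, linear means and leaving out each tumour. Python 3.11.15, pandas 2.3.3, numpy 2.4.6 and matplotlib 3.10.9 were used.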

Additional observations from a re-analysis of the deposited data

Results flagged for a closer look

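Among the genes named by rule, 4 had 1 tumour far from the other 3, with the gap to its nearest neighbour over the range (Dixon's ratio) above its 95% critical value. Chance gives this in about 1 in 20 groups, and 68 genes were looked at. Alkal1 (ratio 0.88), a gene under the floor, was highest in tumour 4, at 4.39, with the other 3 tumours between 4.27 and 4.29. Ext2 (ratio 0.93) and Cblb (ratio 0.90) were lowest in tumour 4, at 7.40 and 8.25. Mtor (ratio 0.84) was highest in tumour 1, at 8.54.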

How the results depend on the processing

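There were 12 alternatives, of which centring on the receptor genes was chosen after seeing the data. Mean levels of the 7 genes were not recomputed for the changed floors, and elsewhere moved by less than 1 SD. For most settings this was bound to be so and does not show stability. Each of the 7 has 1 probe set, centring hardly shifts a mean, and leaving out 1 tumour cannot move it by 1 SD. Over all values and counts recomputed, 144 stayed within 1 SD or a factor of 1.5 and 16 did not. The 144 include the mean levels, so that number does not measure stability. The number of the 7 detected was 2 throughout except with the floor at the 99th percentile (1, Alk) and at the receptor median (6, all but Ptprz1). The number with a range of at least 1 was 1 (Ptprz1) with arrays centred on the receptor genes and 0 otherwise. Leaving out each tumour, the Alk range lay between 0.37 and 0.70 and the Mdk range between 0.22 and 0.44, the lowest values in both cases without tumour 1; the detected pathway genes with a range of at least 1 numbered 1 to 3, with 1 without tumour 2 and 1 without tumour 3. Ranges of Alkal1, Alkal2, Ptn and Ptprz1 also moved by more than 1 SD, Alkal1 to 0.31, Alkal2 to 0.59 with centring on detected genes. Pathway genes with a range of at least 1 numbered 5 with arrays centred on the detected genes. Fewer samples can only narrow a range; the cause of the other changes was not tested. No paired analysis was possible because there is 1 group. Depth does not apply to arrays; signal near background limits Ltk, Alkal1, Alkal2, Ptn and Ptprz1.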
